A study of Homo sapiens with 6 samples.

Results

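The retinoblastoma (RB) pocket proteins and the E2F transcription factors they bind were followed in slow-cycling and rapid-cycling human breast cancer cells. The members were the 10 genes RB1, RBL1, RBL2, E2F1, E2F2, E2F3, E2F4, E2F5, E2F7 and E2F8, taken by gene name from the deposited count and FPKM tables (fragments per kilobase of transcript, scaled to library depth), which hold 58735 genes. All 10 passed the filter on low counts and were among the 15881 genes tested.

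RNA was sequenced from MDA-MB-231, an established triple-negative breast cancer cell line, labelled wild type in all libraries and grown in DMEM with fetal bovine serum. Cells were stained with PKH26, a membrane dye that is diluted at each division, and were sorted by flow cytometry after a 12-day chase. The slow-cycling cells (SCC, 3 libraries) were the 1% with the strongest dye, and the rapid-cycling cells (RCC, 3 libraries) are given as moderate in dye by the sorting protocol and as PKH26-low by the sample labels. Both groups carry the dye and come from the same line. An unstained or unsorted group was not analysed here, and a dye-retaining cell is defined by its division history and not by its cycle phase at the sort.

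Total counts per library were 27831824, 19498054 and 21166766 in SCC replicates 1 to 3 and 22746267, 20962062 and 17655855 in RCC replicates 1 to 3. The line's markers VIM, CD44 and EGFR summed to between 1913 and 1943 CPM (counts scaled by the library total and its TMM factor) in the SCC libraries and to between 1859 and 1924 CPM in the RCC libraries. Of 5 luminal genes, ESR1, PGR and CDH1 were too low to be tested and GATA3 stood at 8.93 ± 1.14 and 7.68 ± 0.668 CPM. KRT8, a keratin of luminal cells, was at 401 ± 20.7 CPM in SCC and 335 ± 8.27 CPM in RCC. It was above RCC in every SCC library (log2 fold change 0.26, edgeR adjusted p = 0.069). KRT8 passed without SCC replicate 1 (0.22, edgeR adjusted p = 0.0024) but not with a correction for GC content (0.13, edgeR adjusted p = 0.128). It passed under 3 of 18 alternative analyses. The summed luminal markers lay between 396 and 436 CPM in SCC and between 334 and 351 CPM in RCC, and the part of this in the results was not tested. The summed leukocyte markers lay between 0.613 and 3.004 CPM in SCC and between 0.573 and 0.951 CPM in RCC. The highest sum was that of SCC replicate 1, where PTPRC stood at 1.97 CPM, against 0.143 to 0.711 CPM in the other libraries. The endothelial markers lay between 3.15 and 3.92 CPM over all libraries. SCC replicate 1 stood apart from the other 5 libraries by the GC content of genes. In the lowest decile of genes by GC content (38.2% at the median) its values deviated by a median of -0.24 on the log2 scale from the mean over all libraries, against -0.02 to 0.10 in the others. In the highest decile (63.8%) the deviation was 0.41, against -0.16 to 0.02. The fold changes of the members, the shares and sums and the list medians are therefore also given without that library and with a correction for GC content.

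The pocket proteins RB1, RBL1 (p107) and RBL2 (p130) bind E2F factors and recruit repressive chromatin enzymes to E2F target promoters. Cyclin D and cyclin E kinases phosphorylate them in G1, which frees the activator E2Fs, E2F1, E2F2 and E2F3, to switch on genes of DNA replication. E2F4 and E2F5 act mainly as repressors with RBL1 and RBL2, the RBL2-E2F4 pair being part of the DREAM complex of resting cells, and E2F7 and E2F8 repress E2F targets late in S phase without binding a pocket protein.

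Several of these genes are themselves known E2F targets, so the letters of the E2F site were looked for in their promoters. The letters searched were TTNNCGC with C or G at each N, which makes 4 forms, on both strands and in windows from 250 bases before to 50 bases after the RefSeq start (GRCh38.p14). The table used holds windows for 8 of the 10 members, those of E2F5 and E2F8 not being among them, and the window of RB1 lies at an internal start and not at the gene's 5′ end. These genes have 10 windows, since a gene may have several starts. At least 1 of the 4 forms was present in 5 of the 10 windows, those of RBL1, E2F1, E2F2, E2F3 and E2F7, against 13.0% of all 35116 windows. Among windows with at least 55% GC it was in 5 of 8 member windows, against 19.5% of 20693. Stretches of 100 bases are shown 5′ to 3′ along the gene's strand for the 5 genes that hold the letters, and for E2F4, which holds none, with each match in capitals. All run from base -80 to base 20 relative to the start, except E2F7, shown from -200 to -101.
E2F1 (minus strand, chr20:33686366-33686465): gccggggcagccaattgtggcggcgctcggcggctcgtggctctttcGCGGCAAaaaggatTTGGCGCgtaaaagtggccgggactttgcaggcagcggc
E2F2 (minus strand, chr1:23531214-23531313): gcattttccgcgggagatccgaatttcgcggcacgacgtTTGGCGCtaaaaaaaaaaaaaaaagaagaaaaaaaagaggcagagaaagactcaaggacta
E2F3 (plus strand, chr6:20401799-20401898): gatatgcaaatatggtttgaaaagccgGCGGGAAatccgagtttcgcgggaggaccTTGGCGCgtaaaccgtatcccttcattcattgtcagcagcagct
RBL1 (minus strand, chr20:37095978-37096077): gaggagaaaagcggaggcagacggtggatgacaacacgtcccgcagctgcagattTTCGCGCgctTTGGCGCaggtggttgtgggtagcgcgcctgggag
E2F7 (minus strand, chr12:77065670-77065769): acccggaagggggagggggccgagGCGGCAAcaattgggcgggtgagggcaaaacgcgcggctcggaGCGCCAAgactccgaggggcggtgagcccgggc
E2F4 (plus strand, chr16:67192075-67192174): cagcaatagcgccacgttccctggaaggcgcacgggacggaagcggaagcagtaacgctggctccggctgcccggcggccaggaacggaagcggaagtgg

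In E2F1, E2F2, E2F3 and RBL1 the matches lay close before the start, with their first bases between 53 and 15 bases upstream. The letters TTTGAA, the cell cycle homology region of late cell cycle genes, were found in 2 of the 10 windows, those of RBL2 and E2F3, against 15.2% of all windows. The AP-1 letters TGACTCA or TGAGTCA were in none of the members' windows, against 4.95% of all. A match is a run of letters and not a measured binding site.

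All 10 genes were expressed in both populations, at levels spanning more than 1 order of magnitude per unit of length. E2F4 had the highest mean level over the 6 libraries, 45.5 ± 2.97 FPKM (SD, n = 6), followed by E2F1 at 33.8 ± 6.00 FPKM and RB1 at 20.7 ± 2.02 FPKM. E2F7 (19.2 ± 0.902 FPKM), E2F3 (16.3 ± 1.29 FPKM), RBL1 (11.2 ± 1.23 FPKM) and E2F8 (10.6 ± 0.370 FPKM) formed the middle of the order. The lowest were RBL2 at 4.66 ± 0.454 FPKM, E2F2 at 3.23 ± 0.385 FPKM and E2F5 at 2.48 ± 0.160 FPKM. Neighbours whose ranges over the libraries overlapped were E2F4 and E2F1, RB1 and E2F7, RBL1 and E2F8, and RBL2 and E2F2. Within a library E2F4 was above E2F1 in 6 of 6, while each of the other 3 pairs kept its order in 5 of 6. The ranges of every other pair of neighbours were separate. RB1 was thus the leading pocket protein transcript, and E2F4 the leading E2F transcript, in every library.

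**Figure D1:**
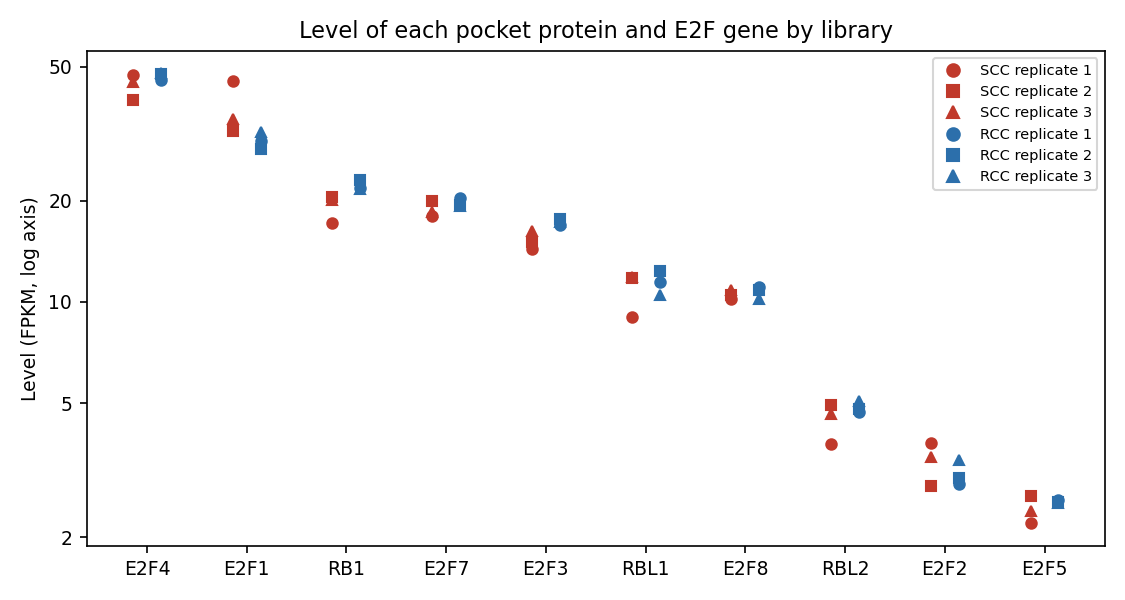
Level of each member in FPKM (log axis) in the 3 SCC and the 3 RCC libraries, one point per library, ordered by the mean over all 6. E2F4 leads at 45.5 FPKM and E2F5 is last at 2.48 FPKM, and the groups overlap for all but E2F1, RB1 and E2F3.

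None of the 10 members passed the test between SCC and RCC (edgeR quasi-likelihood test, Benjamini-Hochberg adjusted p under 0.05), where 2.07% of all tested genes did (1.69% higher and 0.378% lower in SCC). DESeq2 called 0 of the 10 as well, against 4.09% of all genes. Before adjustment, 3 members had p under 0.05, E2F1 toward higher levels in SCC (11.4% of all genes) and RB1 and E2F3 toward lower levels (8.27% of all genes), against 19.7% of all genes in either direction. The same 3 members were those whose SCC and RCC libraries did not overlap, against 27.8% of all genes (14.4% with SCC above and 13.4% with SCC below). Both shares are near the background. The log2 fold change (SCC over RCC) was below 0 in 8 of 10 members, against 49.5% of all genes. With the GC correction it was below 0 in 5 of 10 (50.8% of all genes), and without SCC replicate 1 in 7 of 10 (50.3%). In the fit with all libraries the members' values had a median of -0.07 and ranged from -0.20 to 0.32. Over all tested genes the median was 0.00. The median size of the difference, ignoring its sign, was 0.10 in the members and 0.16 over all genes, which were not matched to the members by level. The members' median was -0.02 without SCC replicate 1, where 0 of the 10 passed against 6.03% of all genes, and 0.01 with the GC correction. The labels call the replicates biological and do not say that cultures were separate, so p-values measure the spread between these libraries. In bulk RNA, fewer expressing cells and less RNA per cell cannot be told apart.

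**Figure D2:**
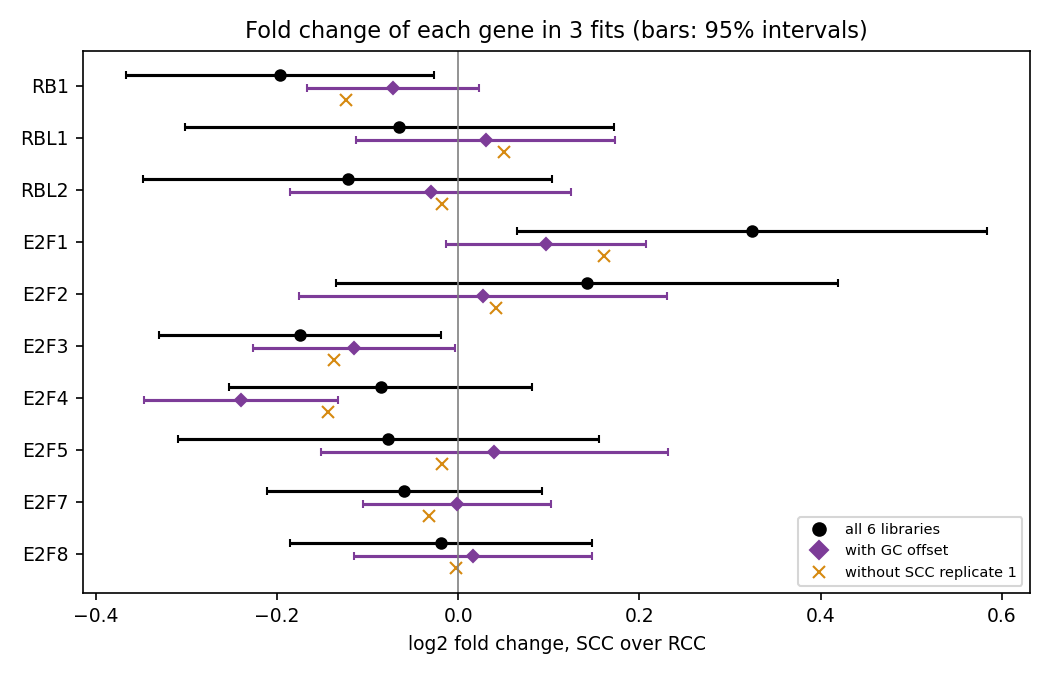
Log2 fold change of each member (SCC over RCC) from edgeR with all libraries and with the GC correction, both with bars for the 95% interval, and without SCC replicate 1 (crosses, no interval drawn). The estimate for E2F1 moves from 0.32 toward 0 under both alternatives, while that of E2F4 moves from -0.09 to -0.24 with the GC correction.

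RB1, the tumour suppressor that restrains entry into S phase (ENSG00000139687, chromosome 13, 48303726 to 48599436, plus strand), was measured at 113, 133 and 130 CPM in SCC replicates 1 to 3 and at 142, 148 and 140 CPM in RCC replicates 1 to 3. Every SCC library lay below every RCC library, and SCC replicate 1 was the lowest. The group means were 125 ± 11.0 and 143 ± 4.22 CPM (SD, n = 3 each), a log2 fold change of -0.20 with a standard error of 0.077 (95% interval -0.37 to -0.03), and the adjusted p of edgeR's quasi-likelihood test was 0.201. Without SCC replicate 1 the log2 fold change was -0.12 (adjusted p = 0.148), and with the GC correction it was -0.07 (adjusted p = 0.396). The transcripts of RB1 have the lowest GC content of the 10 members, 39.3%.

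RBL1, the pocket protein p107, which is itself made by cycling cells (ENSG00000080839, chromosome 20, 36996349 to 37095995, minus strand), stood at 54.6, 70.6 and 70.9 CPM in SCC and at 68.8, 73.4 and 62.5 CPM in RCC. The groups overlapped, with SCC replicate 1 below all others. Its log2 fold change was -0.06 (95% interval -0.30 to 0.17, adjusted p = 0.757 by edgeR's quasi-likelihood test). The sign turned to 0.05 without SCC replicate 1 and to 0.03 with the GC correction.

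RBL2, the pocket protein p130 of the resting-cell DREAM complex (ENSG00000103479, chromosome 16, 53433977 to 53491649, plus strand), stood at 28.1, 36.2 and 34.1 CPM in SCC and at 34.6, 35.1 and 37.3 CPM in RCC. SCC replicate 1 was again the lowest and the other SCC libraries lay within or near the RCC range. The log2 fold change was -0.12 (95% interval -0.35 to 0.10, adjusted p = 0.519 by edgeR's quasi-likelihood test) and became -0.02 without SCC replicate 1 and -0.03 with the GC correction. RBL2 shares 610 of its 7320 exonic bases with AKTIP and 721 with AC007342.6, both on the opposite strand. AKTIP was at 22.9 ± 2.40 CPM in SCC and 24.9 ± 0.908 CPM in RCC, and AC007342.6 did not exceed 0.204 CPM. Whether the authors counted by strand is not given in the sources used here.

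The balance of RBL2 to RBL1 is a property known to differ between resting and cycling cells, RBL2 being high in the former. The ratio of their FPKM was 0.419, 0.418 and 0.392 in SCC and 0.410, 0.389 and 0.485 in RCC. The SCC ratios fell inside the RCC range. The difference of the mean log2 ratios was -0.06 (two-sided exact permutation p = 0.9, where 0.1 is the smallest p that 3 against 3 libraries allow), and its sign turned to 0.04 without RCC replicate 3. Summed over the 3 pocket proteins the level was 34.6 ± 4.02 FPKM in SCC and 38.5 ± 1.61 FPKM in RCC, with overlapping groups. RB1 made up 55.8 ± 1.33% of that sum in SCC and 57.7 ± 0.517% in RCC. That share was 57.3%, 55.1% and 54.9% in SCC and 57.4%, 57.3% and 58.2% in RCC, so SCC replicate 1 lay at the edge of the RCC range and the other SCC libraries below it. SCC replicate 1 was at 58.1% with the GC correction and the groups overlapped (56.0 ± 1.79% and 57.4 ± 0.546%). The summed level was 35.8 ± 1.38 and 36.9 ± 1.01 FPKM with the GC correction, and 36.9 ± 0.430 FPKM in the 2 SCC libraries left without SCC replicate 1, with overlap in both cases.

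E2F1, the activator E2F most closely tied to both S phase entry and apoptosis (ENSG00000101412, chromosome 20, 33675683 to 33686404, minus strand), had the smallest p of the members. It was measured at 115, 81.1 and 87.8 CPM in SCC and at 76.0, 70.9 and 80.2 CPM in RCC. All SCC libraries lay above all RCC libraries, SCC replicate 1 far above and SCC replicate 2 within about 1 CPM of the highest RCC library. Means were 94.6 ± 17.9 and 75.7 ± 4.65 CPM (SD, n = 3 each), with a log2 fold change of 0.32, a standard error of 0.118 and a 95% interval of 0.07 to 0.58. The adjusted p of edgeR's quasi-likelihood test was 0.173 and the gene ranked 1710 by p among all tested. Without SCC replicate 1 the log2 fold change was 0.16 (adjusted p = 0.124) and with the GC correction 0.10 (adjusted p = 0.314). E2F1 has the highest GC content of the members, 62.5%. It passed the threshold under 2 of the 18 alternatives, with every gene of at least 1 count tested (0.33, adjusted p = 0.010, where 2.65% of all genes were called higher) and without SCC replicate 2 (0.41, adjusted p = 0.049, where 3.57% were). Over the 18, the adjusted p of E2F1 ran from 0.010 to 0.603.

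E2F2, a second activator (ENSG00000007968, chromosome 1, 23506430 to 23531220, minus strand), stood at 21.0, 15.6 and 19.0 CPM in SCC and at 15.8, 16.2 and 18.6 CPM in RCC. The groups overlapped, with SCC replicate 2 the lowest of the 6 libraries and SCC replicate 1 the highest. Its log2 fold change was 0.14 (95% interval -0.13 to 0.42, adjusted p = 0.537 by edgeR's quasi-likelihood test), and 0.04 without SCC replicate 1 and 0.03 with the GC correction.

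E2F3, the activator whose gene also makes a shorter form, E2F3b (ENSG00000112242, chromosome 6, 20401906 to 20493715, plus strand), was measured at 75.2, 78.3 and 84.3 CPM in SCC and at 88.2, 90.5 and 89.7 CPM in RCC. Every SCC library lay below every RCC library. Means were 79.3 ± 4.63 and 89.5 ± 1.20 CPM (SD, n = 3 each), a log2 fold change of -0.17 with a standard error of 0.071 (95% interval -0.33 to -0.02) and an adjusted p of 0.212 by edgeR's quasi-likelihood test. It stayed close to this without SCC replicate 1 (-0.14, adjusted p = 0.160) and was -0.11 with the GC correction (adjusted p = 0.227). The counts are per gene, so the E2F3 forms were not separated.

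E2F4, the main E2F of the repressor complexes (ENSG00000205250, chromosome 16, 67192169 to 67198918, plus strand), was measured at 172, 143 and 162 CPM in SCC and at 165, 169 and 172 CPM in RCC. SCC replicates 2 and 3 lay below all RCC libraries, and SCC replicate 1 lay at the top of the RCC range. Means were 159 ± 14.4 and 169 ± 3.36 CPM (SD, n = 3 each), with a log2 fold change of -0.09 (95% interval -0.25 to 0.08) and an adjusted p of 0.538 by edgeR's quasi-likelihood test. With the GC correction, E2F4 was the single member to pass the threshold, at -0.24 (95% interval -0.35 to -0.13, edgeR adjusted p = 0.010), in a fit that called 1.87% of all genes lower. With the GC correction and a block for the replicate number it was again -0.24 (edgeR adjusted p = 0.0023), where 3.44% of all genes were called lower. Without SCC replicate 1 it was -0.14 and did not pass (adjusted p = 0.107). Its transcripts have a GC content of 59.3%.

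E2F5, the second repressor of this class (ENSG00000133740, chromosome 8, 85177225 to 85217158, plus strand), was the least abundant member, at 13.2, 15.7 and 14.2 CPM in SCC and 15.4, 15.1 and 15.0 CPM in RCC. The groups overlapped. Its log2 fold change was -0.08 (95% interval -0.31 to 0.16, adjusted p = 0.702 by edgeR's quasi-likelihood test) and 0.04 with the GC correction, and -0.02 without SCC replicate 1. E2F5 shares 969 of its 5928 exonic bases with C8orf59 on the opposite strand, which was lower in SCC (11.9 ± 1.27 against 17.4 ± 1.49 CPM, log2 fold change -0.54, edgeR adjusted p = 0.045). The part of this overlap in the E2F5 value was not tested.

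E2F7 and E2F8, the atypical repressors, had overlapping groups. E2F7 (ENSG00000165891, chromosome 12, 77021247 to 77065580, minus strand) stood at 115, 126 and 117 CPM in SCC and at 130, 122 and 122 CPM in RCC. E2F8 (ENSG00000129173, chromosome 11, 19224063 to 19241620, minus strand) stood at 42.9, 43.6 and 45.2 CPM in SCC and at 46.2, 44.7 and 42.4 CPM in RCC. The libraries of both groups lay within a narrow band for each gene. The log2 fold change of E2F7 was -0.06 (95% interval -0.21 to 0.09, edgeR adjusted p = 0.646), and it was -0.00 with the GC correction and -0.03 without SCC replicate 1. That of E2F8 was -0.02 (95% interval -0.19 to 0.15, edgeR adjusted p = 0.908), which as a change in SCC runs from -12.1% to 10.8%. The value of E2F8 was 0.02 with the GC correction and -0.00 without SCC replicate 1.

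**Figure D3:**
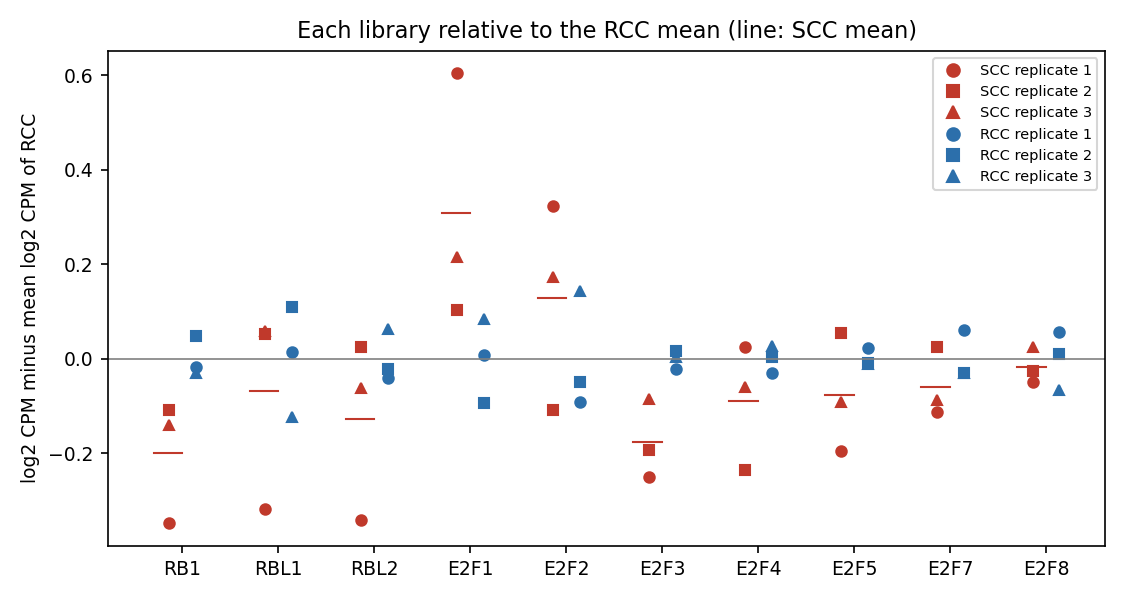
Level of each member in each library relative to its mean over the RCC libraries (log2 of CPM), one point per library, with a line at the SCC mean. SCC replicate 1 is the highest SCC library for E2F1, E2F2 and E2F4 and the lowest for the other 7 genes.

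The position of SCC replicate 1 followed the GC content of the members. It was the highest SCC library in 3 of 3 members over 55% GC (E2F1, E2F2 and E2F4) and the lowest in 7 of 7 members under it. Its log2 distance from the mean of the other SCC libraries ran from -0.37 for RBL1 to 0.45 for E2F1. Across the 10 members this distance and the GC content had a Pearson r of 0.944, and across 15874 tested genes one of 0.542, as a description of points that share the same libraries. The log2 fold change itself had an r of 0.764 with GC content over the 10 members, and of 0.349 without SCC replicate 1. The part of GC content in the differences of single members was not tested beyond the corrected values given above.

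**Figure D4:**
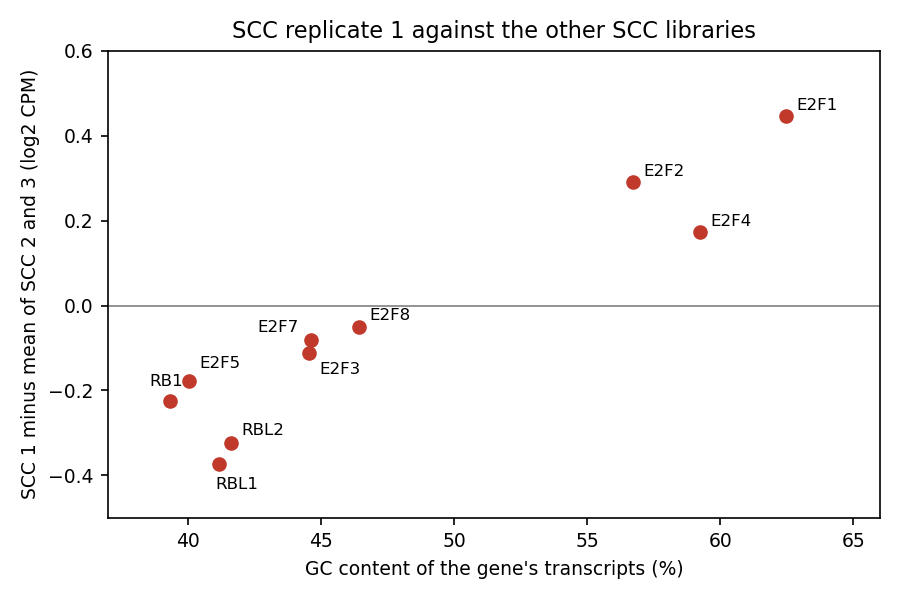
GC content of each member's transcripts (x axis, percent) against the log2 CPM of SCC replicate 1 minus the mean of SCC replicates 2 and 3 (y axis), one point per gene. The 3 genes over 55% GC lie above 0 and the 7 others below it, with a Pearson r of 0.944 over the 10 points.

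The E2F classes made up different shares of the summed FPKM of the 8 E2F members. The activators E2F1 to E2F3 took 45.0%, 40.8% and 41.6% of it in SCC and 38.5%, 37.9% and 39.7% in RCC. E2F4 and E2F5 together took 35.1%, 34.5% and 36.1% in SCC and 37.3%, 38.7% and 38.0% in RCC. The activator share was thus above that of RCC in every SCC library, and the share of E2F4 and E2F5 below it, with means of 42.4 ± 2.22% against 38.7 ± 0.927% and of 35.2 ± 0.793% against 38.0 ± 0.713% (SD, n = 3 each). SCC replicate 1 was the highest in the activator share. The groups stayed apart in both classes with the GC correction, at 41.8 ± 0.939% against 39.1 ± 0.740% for the activators and at 34.8 ± 1.31% against 38.7 ± 0.859% for E2F4 and E2F5. They were also apart without SCC replicate 1, at 41.2 ± 0.589% and 35.3 ± 1.11% in the 2 SCC libraries left. Shares of E2F7 and E2F8 overlapped between the groups (22.3 ± 2.37% and 23.3 ± 1.01%), and SCC had the higher mean with the GC correction (23.4 ± 0.818% and 22.2 ± 0.685%) and without SCC replicate 1 (23.5 ± 1.69%). The sum of all 8 was 132 ± 8.90 FPKM in SCC and 130.4 ± 1.64 FPKM in RCC, with overlapping groups. That order turned with the GC correction and every SCC library lay below every RCC library (127 ± 3.03 and 134 ± 0.434 FPKM), and without SCC replicate 1 the SCC mean was 127 ± 5.97 FPKM, with overlap. These shares are descriptions, and in them E2F1 and E2F4 weigh most. They are parts of the same sum, so a fall in one class raises the share of another. The activators did not move together, since E2F3 was lower in every SCC library (log2 fold change -0.17) and E2F2 overlapped between the groups. Among all tested genes, 27.8% had levels that did not overlap between the groups. That figure is for single genes with all libraries and no GC correction. No such figure was computed for shares or sums, with the GC correction or without SCC replicate 1. Groups also stay apart more easily with 2 SCC libraries than with 3.

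Around the members, 7 lists of partners, regulators and targets with 84 genes were followed in the same fit, beside the 2.07% of all genes that passed. Of the partner list, TFDP1 and TFDP2, which form the DNA-binding dimer with E2Fs, and E2F6, a repressor that binds no pocket protein, 0 of 3 passed the test (median log2 fold change 0.07, 0.12 with the GC correction and 0.10 without SCC replicate 1). TFDP1 stood at 202 ± 6.13 CPM in SCC and 221 ± 4.84 CPM in RCC (log2 fold change -0.13, edgeR adjusted p = 0.272), every SCC library lying below every RCC library. With the GC correction its value was -0.18 and passed (edgeR adjusted p = 0.045), where 1.87% of all genes were called lower. TFDP2 had a log2 fold change of 0.09 (edgeR adjusted p = 0.541) and E2F6 one of 0.07 (edgeR adjusted p = 0.679). The list of MuvB, DREAM, B-MYB and FOXM1 factors had 0 of 9 past the threshold, with a median of -0.02 that turned to 0.01 both with the GC correction and without SCC replicate 1. DYRK1A, the kinase that promotes DREAM assembly, was called higher with the GC correction (0.23, edgeR adjusted p = 0.039), against 0.15 (adjusted p = 0.2497) without it. With the correction 548 of 15881 genes were called higher. FOXM1, the activator of mitotic genes, stood at 241 ± 29.5 and 207 ± 3.13 CPM (0.22, edgeR adjusted p = 0.200). FOXM1 was at 0.14 with the GC correction and 0.11 without SCC replicate 1. The histone-binding MuvB subunit RBBP4 stood at 109.5 ± 6.78 and 123 ± 2.79 CPM (-0.17, edgeR adjusted p = 0.221). RBBP4 was at -0.11 with the GC correction and -0.13 without SCC replicate 1.

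Among the kinases and cyclins that phosphorylate the pocket proteins, 0 of 8 tested genes passed, with a median of -0.03 (-0.03 with the GC correction and -0.04 without SCC replicate 1). CCNE2, the cyclin E2 that drives CDK2 at the end of G1 and a known E2F target, missed the threshold narrowly. It was measured at 15.8, 18.6 and 19.6 CPM in SCC and at 25.1, 26.3 and 23.0 CPM in RCC, with no overlap. On the log2 scale SCC differed from RCC by -0.47 (standard error 0.108, edgeR adjusted p = 0.054). It passed under 8 of the 18 alternatives, among them the GC correction (-0.33, adjusted p = 0.030) and the fit without SCC replicate 1 (-0.38, adjusted p = 0.015). Of all genes, 1.87% were called lower with the GC correction, and 6.03% were called in either direction without SCC replicate 1. CDK6, a cyclin D kinase, had a log2 fold change of -0.17 (165 ± 7.08 and 186 ± 6.19 CPM, edgeR adjusted p = 0.200), which became -0.09 with the GC correction.

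The inhibitors of these kinases were the single list with members past the threshold, 2 of 5 tested higher in SCC and 0 lower, with a median of 0.24 (0.16 with the GC correction and 0.15 without SCC replicate 1). CDKN1A, which encodes p21, rose from 29.2, 28.8 and 30.8 CPM in RCC to 48.1, 46.3 and 48.4 CPM in SCC. The SCC libraries lay close together and far above the RCC libraries. On the log2 scale CDKN1A was higher by 0.69 (standard error 0.077, edgeR adjusted p = 7.5e-04), and it passed under all 18 alternatives. CDKN2D, which encodes the CDK4 and CDK6 inhibitor p19, rose from 26.6 ± 2.47 to 37.3 ± 3.39 CPM (SD, n = 3 each), a log2 fold change of 0.49 with a standard error of 0.101 (edgeR adjusted p = 0.035). CDKN2D was at 0.29 with the GC correction and did not pass (adjusted p = 0.062), and it passed under 9 of the 18 alternatives. CDKN2A and CDKN2B, the genes of p16 and p15, were too low to be tested.

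Of the chromatin repressors that RB binds, 0 of 10 passed (median -0.02, -0.01 with the GC correction and -0.02 without SCC replicate 1). The 2 with the smallest p were SMARCA2, a chromatin remodelling ATPase, at 0.11 (edgeR adjusted p = 0.413) and ARID4B, a subunit of the SIN3 repressor complex, at -0.11 (edgeR adjusted p = 0.438), or -0.00 with the GC correction.

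The targets of E2F at the G1 to S boundary also showed none past the threshold, 0 of 26 tested. Their median was -0.04 (-0.04 with the GC correction and -0.05 without SCC replicate 1). In the fit with all libraries 16 of 26 were below 0, against 49.5% of all genes. GINS2, a subunit of the replicative helicase, stood at 45.0 ± 1.55 CPM in SCC and 53.9 ± 2.51 CPM in RCC (-0.26, edgeR adjusted p = 0.109). EZH2, the Polycomb methyltransferase, stood at 117 ± 8.41 and 135 ± 2.83 CPM (-0.22, edgeR adjusted p = 0.146). SCC lay below RCC in every library for both. GINS2 and UHRF1 were called lower with the GC correction, where 1.87% of all genes were. Without SCC replicate 1 GINS2 was called lower and PCNA higher, where 6.03% of all genes were called in either direction.

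Targets of the DREAM complex in G2 and mitosis gave 0 of 19 past the threshold, with a median of -0.04. In the fit with all libraries 12 of 19 were below 0, against 49.5% of all genes. The median turned to 0.03 both with the GC correction and without SCC replicate 1. The 2 with the smallest p were UBE2C, a ubiquitin-conjugating enzyme of mitotic exit, at 209 ± 2.32 and 186 ± 12.4 CPM (0.17, edgeR adjusted p = 0.204), and BIRC5, which encodes survivin, at 181 ± 5.84 and 164 ± 6.13 CPM (0.14, edgeR adjusted p = 0.249). The proliferation marker MKI67 stood at 536 ± 53.5 CPM in SCC and 494 ± 8.44 CPM in RCC (0.12, edgeR adjusted p = 0.401), and the mitotic cyclin gene CCNB1 at 202 ± 13.8 and 218 ± 5.55 CPM (-0.11, edgeR adjusted p = 0.388). Both overlapped between the groups. MKI67 was at 0.14 with the GC correction (edgeR adjusted p = 0.235) and 0.03 without SCC replicate 1. CCNB1 was at -0.05 with the GC correction and -0.06 without SCC replicate 1.

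**Figure D5:**
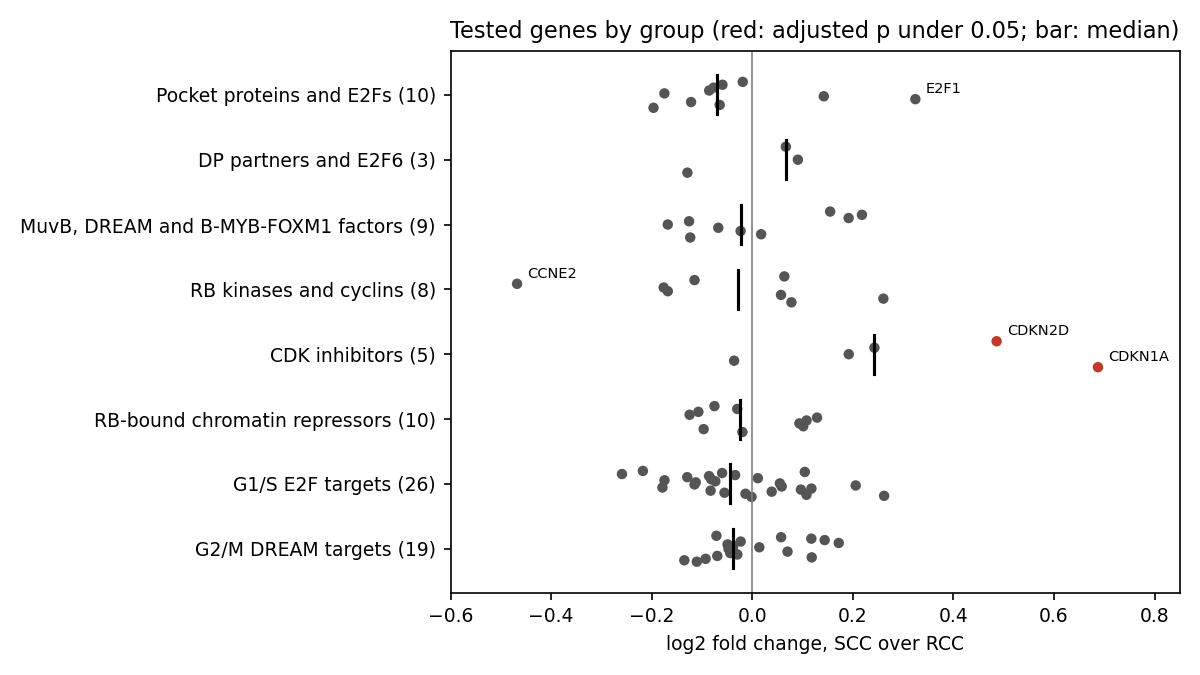
Log2 fold change (SCC over RCC, edgeR) of every tested gene of the members and the 7 lists, one point per gene, red where the adjusted p is under 0.05, with a bar at each list's median. CDKN1A (0.69) and CDKN2D (0.49) are the 2 genes past the threshold, and CCNE2 (-0.47) lies farthest below 0.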

How the data were processed

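RNA-seq of 6 libraries (3 SCC, 3 RCC) was analysed from the table of raw gene counts and the table of FPKM that the authors deposited. Libraries were made with a NEBNext Ultra kit from TRIzol RNA, per the labels' protocols. HISAT2 2.0.5 and featureCounts 1.5.0-p3 are named in the submitters' processing notes. The genome build and the use of strand are not given in the sources used here. The IDs, starts and ends of all 58735 genes match GENCODE release 29 (GRCh38), whose positions are printed.

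The counts as deposited were filtered with filterByExpr (minimum count 10), scaled by TMM and tested with edgeR 4.0.16 (quasi-likelihood F test, SCC over RCC, Benjamini-Hochberg over 15881 genes, R 4.3.3). CPM are TMM-scaled. FPKM, deposited by the authors, served for levels between genes and shares. Standard errors are the absolute log2 fold change over the root of F, and intervals are 95% on the fit's degrees of freedom. The GC correction was a lowess (span 0.3) of each library's log2 deviations on GC content, used as an offset (for FPKM shares and sums, as a divisor). No genome was given, so GC content is the length-weighted mean over GENCODE transcripts.

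Alternatives were DESeq2 1.42.0, limma 3.58.1 on log2(FPKM + 1) and log2(FPKM + 0.1) with a minimum of 1 FPKM in 3 libraries, other scalings and filters, thinning to the smallest library, a replicate block, the GC correction and leaving out each library. Counts were simulated for SCC over RCC (15568 genes) with the spread of the fit without the GC correction. At each size 50 genes were changed, drawn from those with higher counts. Of the genes changed by a log2 of 0.25 edgeR called 2%, with 56% at 0.5, 96% at 1 and 100% at 2. It also made 16 false calls among the unchanged genes. Every member but E2F1 differed by less than 0.25 in that fit, and changes of 0.25 were rarely called. E2F1, at 0.32, lay between the simulated sizes 0.25 and 0.5.

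Replicate pairs differed by more than sampling noise in every case (chi-square per degree of freedom from 3.17 to 24.6), and each library was counted as 1 replicate. Members and lists were chosen with earlier results of these data known. Every member is named. So are TFDP1, TFDP2, E2F6, MKI67, CCNB1 and CDKN1A. Of each other list, the called genes (up to 4) are named, or else the 2 with the smallest p. UHRF1, PCNA, DYRK1A, KRT8, GATA3 and C8orf59 were named after their values were seen.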

Additional observations from a re-analysis of the deposited data

How the results depend on the processing

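Over 18 alternatives, the 180 log2 fold changes of the 10 members kept their direction and side of the threshold in 168 cases, passed it newly in 4 (E2F1 and E2F4, given above; E2F4 was at -0.24 with the GC correction together with the replicate block) and turned in 8. With the GC correction, alone and with the replicate block, RBL1 was at 0.0305 and 0.0299, E2F5 at 0.0400 and 0.0402 and E2F8 at 0.0167 and 0.0169. When a library was left out, RBL1 ran from -0.1377 (without SCC replicate 2) to 0.0506 (without SCC replicate 1) and E2F8 from -0.0595 (without RCC replicate 3) to 0.0001 (without RCC replicate 1). None of these turned values passed the threshold. The other 7 members kept their sign in all 18. Members called higher numbered 1 with every gene of at least 1 count and 0 to 1 when a library was left out, and members called lower 1 with the GC correction, 1 with GC correction and block, and 0 in each fit with a library left out. The log2 RBL2 to RBL1 ratio difference ran from -0.12 to 0.04 (0.0354 without RCC replicate 3) when a library was left out. Shares and sums with the GC correction and without SCC replicate 1 were added after the data were seen: the SCC minus RCC difference turned for the E2F7 and E2F8 share (from -0.953 to 1.219 and 0.2295 percentage points) and for the summed E2F level (from 1.49 to -6.95 and -3.03 FPKM), in that order.

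Genes called higher (268) numbered 480 by DESeq2, 548 with the GC correction, 701 with GC correction and block, 995 with every gene of at least 1 count, 130 and 117 by limma with 1 and 0.1 added, 48 by limma unfiltered, and 99 to 642 with a library left out. Genes called lower (60) numbered 170, 297, 547, 315, 36, 34 and 1 in the same order, 106 with the replicate block alone, and 8 to 343 with a library left out. The share of higher calls was 81.7%, 64.9% with the GC correction and 56.2% with correction and block. The causes of these shifts were not tested.

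Deviations of same-numbered libraries correlated at -0.009, 0.025 and -0.079, and 1 of 6 libraries correlated best with its own number. These values rest on 3 libraries a group and hold the GC deviation of SCC replicate 1, so they cannot settle whether libraries were paired. With the replicate block 456 genes were called, 315 of them shared with the 328, and no member, and the RBL2 to RBL1 difference stayed at -0.06. With the GC correction 1248 genes were called with the block and 845 without it. On simulated counts 56% of genes changed by a log2 of 0.5 were called and 2% at 0.25. Their spread was that of the fit without the GC correction, so the limit holds for that fit. In that fit every member but E2F1 differed by less than 0.25. E2F1, at 0.32, lay between the simulated sizes 0.25 and 0.5. With the GC correction E2F4 was called at -0.24. Without the correction the 95% intervals of the members reach from -22.4% (RB1) to 49.8% (E2F1).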

Other observations

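By Pearson r of log2 CPM over the 6 libraries, the genes most like E2F1 among 10912 with a mean of at least 5 CPM were MED15, a Mediator subunit (r = 0.998), USP35, a deubiquitinase (r = 0.997), and TAPBP, the MHC class I loading chaperone tapasin (r = 0.996). Each was highest in SCC replicate 1, and none passed the test. MED15 was at 168, 125 and 131 CPM in SCC and 118, 110 and 122 CPM in RCC. The GC contents of MED15, USP35 and TAPBP were 60.3%, 59.8% and 60.8%, beside the 62.5% of E2F1.

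The 7 pseudogenes named for an E2F or pocket protein gene held at most 10 counts in any library.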
